A study of Mus musculus with 6 samples.

Results

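AP-1 is a family of transcription factors built as dimers of Fos and Jun proteins, and Batf and Atf3 are relatives that dimerise with Jun proteins. The family was examined here in mouse CD4+CD25+ cells, a fraction rich in regulatory T cells (Treg), which hold back immune reactions. The genes were chosen by name, as the probe sets whose platform annotation gave Fos, Fosb, Fosl1, Fosl2, Jun, Junb, Jund, Batf or Atf3 as their single symbol. All 9 genes were found, on 11 of 22626 probe sets and among 12393 genes with a symbol of their own. Fosl1 and Jun had 2 probe sets each.

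RNA of cells separated magnetically from Balb/c mice was hybridised to 6 single-colour arrays. There were 3 samples from Mbd2 knockout mice (genotype MBD2-/-) and 3 from wild-type mice of the same background. Mbd2 binds methylated DNA and recruits repressor complexes, and the study's title names it in connection with Foxp3 demethylation and Treg function. The labels give no treatment in either group, and neither the age of the mice nor how many mice went into a sample is stated in them. The design text calls the samples independent, and each p-value below reflects the variation among the samples kept in its fit.

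All AP-1 proteins share a basic region, which contacts DNA, and a leucine zipper, which joins the partners. Fos proteins cannot pair with themselves and need a Jun partner, whereas Jun proteins can also pair with each other. In T cells, Fos and Jun are induced within minutes of antigen receptor signalling and bind with NFAT at cytokine genes. Batf lacks the activation domain of Fos, binds with Jun proteins and Irf4, and is needed for effector T helper programmes and for Treg in tissues. Fos, Fosb, Jun and Atf3 are also immediate early genes that respond to stress and are expressed in many cell types, myeloid cells among them.

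By the brightest probe set, every knockout array read above all wild-type arrays for Fos, Fosb and Atf3. For Junb and Batf every knockout array read below wild-type replicates 1 and 2. Jun met this rule with its dimmer probe set only and was left out. The promoter windows of the 5 genes are shown, as the stretches next to their starts. Each runs from 250 bases before to 50 bases after the annotated start, 5′ to 3′ on the gene's strand, from RefSeq (GRCm38.p6). Capitals mark TGACG or its reverse complement CGTCA, the core of the cAMP response element (CRE).
Fos (chr12:85473640-85473939, strand plus): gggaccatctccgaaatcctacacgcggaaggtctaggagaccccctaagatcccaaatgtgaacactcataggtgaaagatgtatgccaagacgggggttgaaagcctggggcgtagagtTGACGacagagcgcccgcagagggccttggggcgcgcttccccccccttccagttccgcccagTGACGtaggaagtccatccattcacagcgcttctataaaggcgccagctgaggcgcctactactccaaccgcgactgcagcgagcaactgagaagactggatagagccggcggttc
Fosb (chr7:19309996-19310295, strand minus): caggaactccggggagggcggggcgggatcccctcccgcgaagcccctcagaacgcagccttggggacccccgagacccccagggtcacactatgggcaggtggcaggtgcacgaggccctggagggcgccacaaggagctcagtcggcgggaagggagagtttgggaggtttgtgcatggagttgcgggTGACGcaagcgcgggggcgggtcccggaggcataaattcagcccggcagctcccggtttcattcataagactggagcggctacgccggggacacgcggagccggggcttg
Atf3 (chr1:191183284-191183583, strand minus): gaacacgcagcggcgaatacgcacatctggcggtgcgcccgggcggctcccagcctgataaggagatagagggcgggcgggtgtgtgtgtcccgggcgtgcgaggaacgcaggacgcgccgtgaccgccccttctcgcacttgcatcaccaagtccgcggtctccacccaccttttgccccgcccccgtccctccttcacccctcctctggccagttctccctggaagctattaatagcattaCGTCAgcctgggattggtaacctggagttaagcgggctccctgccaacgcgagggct
Junb (chr8:84978699-84978998, strand minus): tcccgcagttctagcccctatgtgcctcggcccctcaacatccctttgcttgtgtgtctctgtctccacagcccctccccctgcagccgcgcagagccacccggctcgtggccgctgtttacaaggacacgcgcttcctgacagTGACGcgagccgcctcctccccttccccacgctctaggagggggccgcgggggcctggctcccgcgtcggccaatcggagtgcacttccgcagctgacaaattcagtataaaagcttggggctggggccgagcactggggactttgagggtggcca
Batf (chr12:85686470-85686769, strand plus): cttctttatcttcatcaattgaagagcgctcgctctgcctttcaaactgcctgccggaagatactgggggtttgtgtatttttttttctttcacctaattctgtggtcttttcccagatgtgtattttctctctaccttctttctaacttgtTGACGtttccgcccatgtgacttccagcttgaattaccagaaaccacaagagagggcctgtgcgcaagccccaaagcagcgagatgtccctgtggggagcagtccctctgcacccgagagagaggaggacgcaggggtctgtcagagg

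This core was present in the windows of these 5 genes, out of 8 members with a window, and in 20.8% of 32851 windows of the table. The window of Jun lacked it. The full CRE, TGACGTCA, which contains the core on both strands, was in 0 member windows and in 1.79% of all. The AP-1 site, TGAGTCA or TGACTCA, was in 0 member windows and 5.2% of all, and the CArG box in 0 member windows and 1.63% of all. Sites more than 250 bases before a start lie outside these windows and are not counted. Jun's window held TGACATCA, searched on both strands together with TGATGTCA, which 3.62% of all windows contain. The number of CG dinucleotides, the sites that DNA methylation uses, was 20 for Fos, 25 for Fosb, 27 for Atf3, 21 for Junb and 9 for Batf, against a median of 7 over all windows. Jun had 15, Fosl2 32 and Jund 3. The core TGACG itself holds a CG, and the 20.8% of all windows was not matched for CG number, so it is not a like background. Whether the core goes with a change in expression was not tested. Methylation was not measured on these arrays. On chromosome 12, Fos, Jdp2 and Batf are neighbours in this order, with no other protein-coding gene between them in the annotation.

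The arrays differed before any comparison of genotypes. Wild-type replicate 3 correlated with the other arrays at 0.750 to 0.767 across probe sets, and the other pairs of arrays at 0.956 to 0.997. Its quartiles were closer together than those of the rest, so bright probe sets read lower and dim ones higher on it. Values are therefore given for 6 arrays and again for the 5 without it. Mbd2 was at 5.93, 5.71 and 6.14 in the knockout arrays on its brighter probe set, against 8.80, 8.66 and 6.93 in the wild-type arrays, and did not overlap between groups. The labels do not say whether this probe set lies in the deleted part. Foxp3, the lineage factor of Treg, was at 7.98, 6.62 and 8.17 in the knockout arrays and at 8.83, 8.74 and 6.93 in the wild-type arrays, so both groups carried the marker of the labelled cell type.

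Among the Fos proteins, Fos and Fosb were higher in every knockout array than in any wild-type array. The Fos probe set gave RMA log2 values of 12.10, 13.11 and 12.07 in knockout replicates 1, 2 and 3, against 11.24, 11.62 and 10.53 in wild-type replicates 1, 2 and 3. Knockout replicate 2 stood highest and wild-type replicate 3 lowest, and the gap between the groups was 0.45. Fosb, a Fos relative induced by the same stimuli, gave 8.26, 9.43 and 8.53 in knockout arrays, against 7.13, 7.73 and 5.95 in wild-type arrays. Again knockout replicate 2 was highest and wild-type replicate 3 lowest, without overlap. Wild-type replicate 3 was the lowest of the 6 arrays for 5 of the 8 tested members, against 64.7% of all genes.

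The log2 difference of Fos came to 1.3 (SE 0.41), 2.46-fold, in the 6-array fit and 0.998 (SE 0.34), 2.0-fold, without wild-type replicate 3. That of Fosb was 1.80 (SE 0.53), 3.48-fold, and 1.31 (SE 0.37), 2.48-fold. Neither passed the threshold of an adjusted p under 0.05 in limma, with adjusted p of 0.829 and 0.179 for Fos and 0.803 and 0.136 for Fosb. Ordered by log2 difference from the highest, Fosb was at place 94 of 8190 genes with 6 arrays and 160 without wild-type replicate 3, and Fos at places 210 and 238.

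Fosl1 and Fosl2, the Fos-related antigens, which lack the activation domain of Fos, were dim. The 2 Fosl1 probe sets lay between 4.48 and 4.64 in the knockout arrays and between 4.46 and 5.39 in the wild-type arrays. Both were below the filter on low values (a mean under 5.18 over the 6 arrays), and Fosl1 was not tested. Fosl2 gave 5.18, 5.15 and 5.19 in knockout arrays, against 5.20, 5.04 and 6.15 in wild-type arrays. It passed the filter through the high value of wild-type replicate 3, and 5 of its values lay at or near the cutoff. Its log2 difference came to -0.29 for 6 arrays and 0.0526 without wild-type replicate 3 (95% interval -0.18 to 0.29, limma adjusted p = 0.772).

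**Figure D1:**
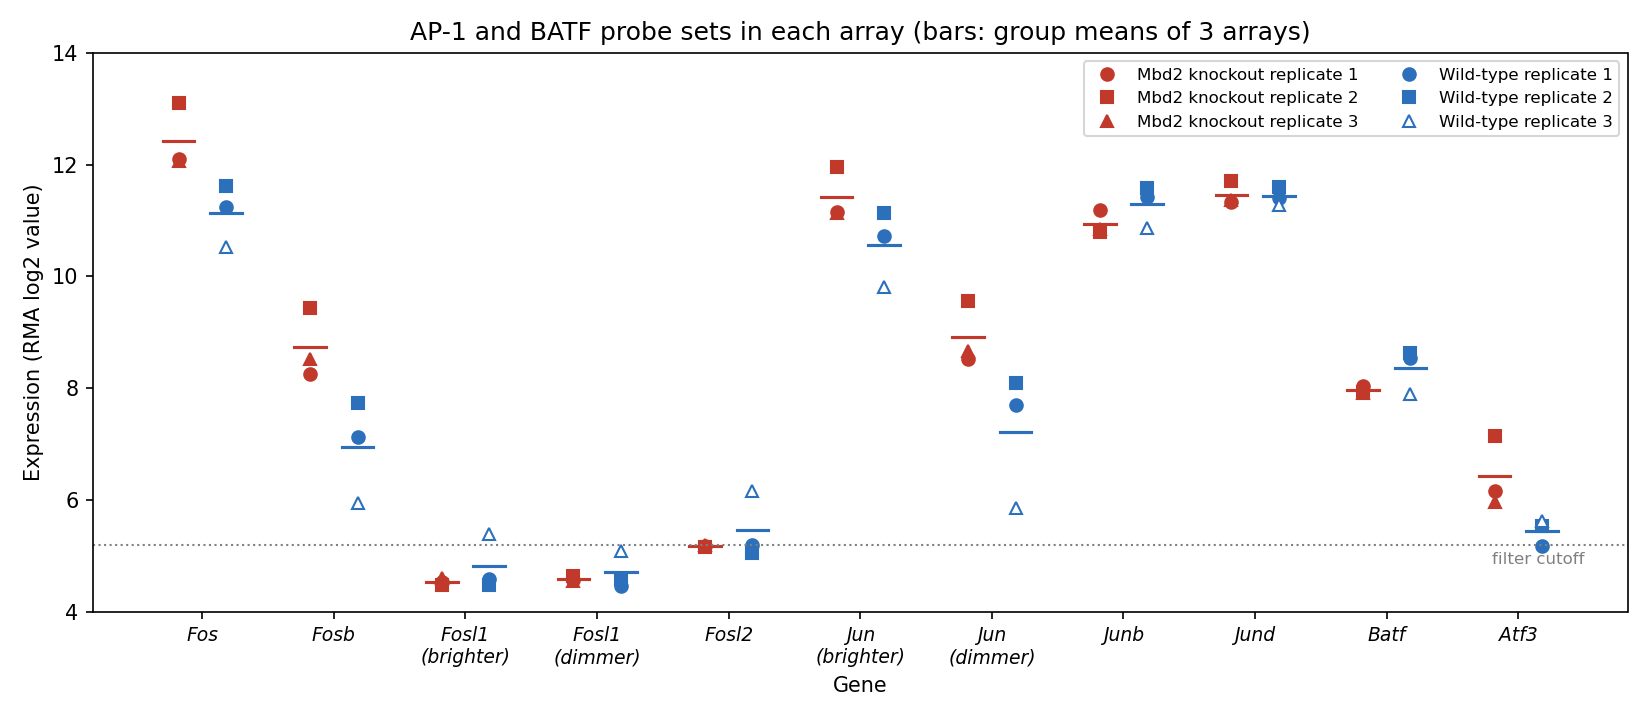
RMA log2 value of each AP-1 and BATF probe set (horizontal axis) in every array, with knockout arrays left of wild-type arrays, horizontal bars for the group means and the dotted line at the filter cutoff of 5.18. Fos, Fosb, Atf3 and the dimmer Jun probe set do not overlap between groups, and Batf and Junb are lower in knockout arrays than in wild-type replicates 1 and 2.

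Among the Jun proteins, the 2 probe sets of Jun differed in size. Jun is the main partner of Fos. Its brighter probe set gave 11.16, 11.96 and 11.13 in knockout arrays, against 10.73, 11.14 and 9.81 in wild-type arrays, where wild-type replicate 2 lay just above knockout replicate 3. The dimmer probe set gave 8.51, 9.56 and 8.66 in knockout arrays, against 7.70, 8.09 and 5.85 in wild-type arrays, without overlap. The log2 differences were 0.85 and 1.70 with 6 arrays and 0.48 and 1.02 without wild-type replicate 3. Neither probe set was called in the fit of all 6 arrays or in that without wild-type replicate 3 (limma adjusted p = 0.829 for both with 6 arrays, and 0.374 and 0.165 with 5).

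Junb, which pairs with Batf in T cells and opposes Jun at some genes, lay the other way. It gave 11.18, 10.80 and 10.85 in knockout arrays, against 11.43, 11.58 and 10.87 in wild-type arrays. All knockout arrays were below wild-type replicates 1 and 2, and wild-type replicate 3 lay among them. The log2 difference came to -0.35 (SE 0.27) for 6 arrays and -0.56 (SE 0.15) after wild-type replicate 3 was left out, which did not pass the threshold (limma adjusted p = 0.829 and 0.118). Jund, the Jun protein whose transcript is present without stimulation, gave 11.34, 11.70 and 11.36 in knockout arrays and 11.41, 11.60 and 11.29 in wild-type arrays. Its groups overlapped in both fits, and without wild-type replicate 3 the difference was -0.04 with a 95% interval of -0.40 to 0.32.

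Batf was the 1 member called, lower in knockout, in the fit without wild-type replicate 3, and no member was called in the 6-array fit. Array quality weights keep every array in the fit, each at a weight estimated from these same values. The weights are not given here, and they can lower the share of wild-type replicate 3 strongly. With them the 6-array fit called Batf (limma adjusted p = 0.00161) and also Fos, Fosb, Atf3 and Junb. That fit called 971 probe sets higher and 1352 lower of 13575, against 14 and 0 without weights. Its log2 difference for Batf, -0.62, was near that of the fit without wild-type replicate 3. The weighted call of Batf is therefore not separate from leaving that array out. The values of Batf were 8.03, 7.94 and 7.92 in knockout arrays, against 8.54, 8.63 and 7.90 in wild-type arrays. The 3 knockout arrays lay within a narrow range, 0.51 below the lower of wild-type replicates 1 and 2. In the deposited values wild-type replicate 3 lay below all 3 knockout arrays. After a further quantile normalization Batf was at -0.70 with 6 arrays and -0.54 without wild-type replicate 3 (limma adjusted p = 0.699 and 0.0504). There wild-type replicate 3 no longer lay at the knockout level. Batf fell 1.54-fold in the 5-array fit (log2 difference -0.62, SE 0.09, limma adjusted p = 0.0481). With 6 arrays the difference was -0.39 (SE 0.26, limma adjusted p = 0.829). The call was lost when any of 4 arrays was also left out, at adjusted p of 0.139 and 0.132 without knockout replicates 1 and 3 and 0.403 and 0.442 without wild-type replicates 1 and 2, with log2 differences from -0.66 to -0.57. Over 15 alternatives to this fit the adjusted p ran from 0.00141 to 0.856. In such bulk samples fewer cells of a type and less RNA per cell cannot be told apart.

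Atf3, a stress-induced factor that pairs with Jun and often represses, gave 6.16, 7.15 and 5.96 in knockout arrays, against 5.18, 5.54 and 5.61 in wild-type arrays. The groups did not overlap, and knockout replicate 2 was 1.09 above the mean of the other knockout arrays. The log2 difference came to 0.98 (SE 0.36), 1.97-fold, for 6 arrays and 1.07 (SE 0.36), 2.09-fold, without wild-type replicate 3, and was not called (limma adjusted p = 0.829 and 0.176).

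Counted by gene, each through its brightest probe set, 8 of 9 members were tested. With 6 arrays, limma called 0 of them, where 0.122% of 8190 genes were called, and at an unadjusted p under 0.05 there were 3 higher and 0 lower, where 3.91% of all genes were higher and 0.574% lower. Without wild-type replicate 3, 1 of 8 was called, where 1.58% of all genes were called and 0.757% were called lower, and at an unadjusted p under 0.05 there were 3 higher and 2 lower, where 7.69% of all genes were higher and 15% lower. These shares are the background for the counts of the further lists below. The groups did not overlap for 3 of the 8 with 6 arrays, against 16.3% of all genes. For the 5 arrays it was 5 of 8, against 49.6% of all genes. The median log2 difference of the members was 0.44 with 6 arrays and 0.26 with 5, beside 0.16 and -0.06 over all genes tested.

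**Figure D2:**
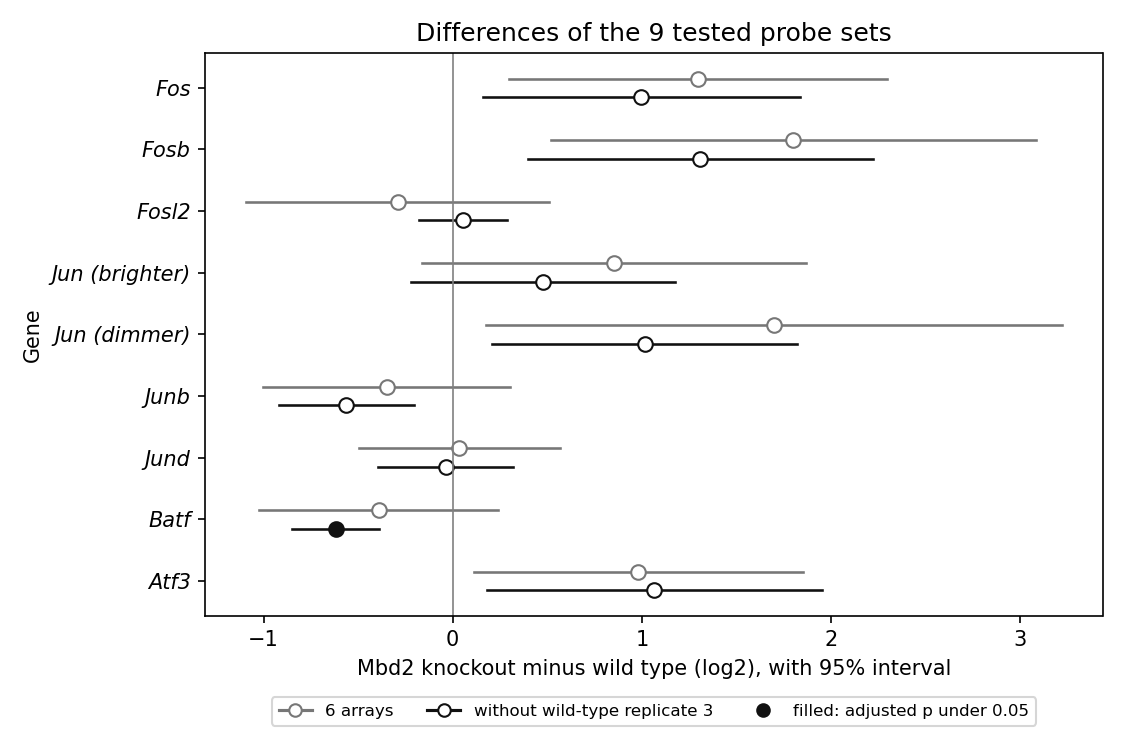
Log2 difference, knockout minus wild type, of the 9 tested probe sets with its 95% interval, in grey for 6 arrays and in black without wild-type replicate 3, where filled points passed an adjusted p under 0.05. Batf without wild-type replicate 3, at -0.62, is the filled point.

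Knockout replicate 2 had the highest value of the knockout arrays for 5 of the 8 tested members, against 31.5% of all genes. It exceeded the mean of knockout replicates 1 and 3 by 1.03 for Fos, 1.03 for Fosb, 0.81 for the brighter Jun probe set and 0.35 for Jund, while Batf was 0.04 and Junb 0.22 below that mean. With knockout replicate 2 left out as well as wild-type replicate 3, 2 arrays a group remained, and the spread was smaller. Knockout replicate 2 stood apart for Fos, Fosb, Jun and Atf3 themselves, so leaving it out lowers their spread by construction. The adjusted p of that fit therefore do not measure the variation among all samples. In that fit limma called 743 genes higher (9.07% of 8190) and 902 lower (11% of 8190). Fos, Fosb and Atf3 were then called higher, at 1.57-fold, 1.95-fold and 1.63-fold (limma adjusted p = 0.0172, 0.0202 and 0.0163). Batf and Junb were called lower, at 1.52-fold and 1.40-fold (limma adjusted p = 0.00552 and 0.041). The brighter Jun probe set was not called (limma adjusted p = 0.322) and the dimmer one was (1.62-fold, limma adjusted p = 0.0184).

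Summed markers of 5 other kinds of blood cell were higher in the knockout arrays, without overlap, and those of erythroid cells and platelets overlapped. A linear sum follows its brightest genes, which were Ighm and Jchain for plasma cells and Gzma for CD8 T cells and NK cells. Gzma overlapped between groups, as did the plasma cell markers Prdm1, Sdc1 and Tnfrsf17. Beside the counts of single genes below, 16.3% of all genes did not overlap between groups in either direction. The summed linear level of 11 neutrophil markers was 23869 to 34606 in knockout arrays and 613 to 1549 in wild-type arrays, with 10 of 11 genes higher without overlap. That of 10 monocyte, macrophage and dendritic cell markers was 2775 to 6087 in knockout arrays and 383 to 611 in wild-type arrays (8 of 10 without overlap). For 9 B cell markers it was 3795 to 7720 in knockout arrays and 948 to 2023 in wild-type arrays (7 of 9), and for 6 plasma cell markers 31252 to 42158 in knockout arrays and 11098 to 23506 in wild-type arrays (3 of 6). For 9 CD8 T cell and NK cell markers it was 1657 to 4477 in knockout arrays and 765 to 1606 in wild-type arrays (1 of 9), and 6 erythroid and platelet markers were at 211 to 241 in knockout arrays and 191 to 572 in wild-type arrays (0 of 6). In the wild-type arrays 1 neutrophil and 2 myeloid marker genes had a mean under the filter cutoff.

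Knockout replicate 2 had the highest sum of the knockout arrays for each of these lists, although the neutrophil granule genes Mpo, Elane and Prtn3 were lowest there (Mpo 8.36, 6.82 and 7.51 in knockout replicates 1, 2 and 3). Wild-type replicate 2 stood above wild-type replicate 1 for the neutrophil sum (1549 against 613), the B cell sum (2023 against 1127) and Fos (11.62 against 11.24). The same order held for 7 of the 8 tested members, against 45.4% of all genes. Batf (8.63 against 8.54) and Junb (11.58 against 11.43) were among them. The 9 T cell markers ran the other way from the neutrophil and B cell sums. Their sums were 10345, 6387 and 10296 in knockout arrays, against 13223, 12897 and 6629 in wild-type arrays. The 10 Treg markers had sums of 4948, 2605 and 5979 in knockout arrays, against 7481, 7263 and 3298 in wild-type arrays. Of the T cell markers 9 of 9, and of the Treg markers 9 of 10, were below wild-type replicates 1 and 2 in every knockout array, where 49.6% of all genes did not overlap between these 5 arrays in 1 direction or the other.

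**Figure D3:**
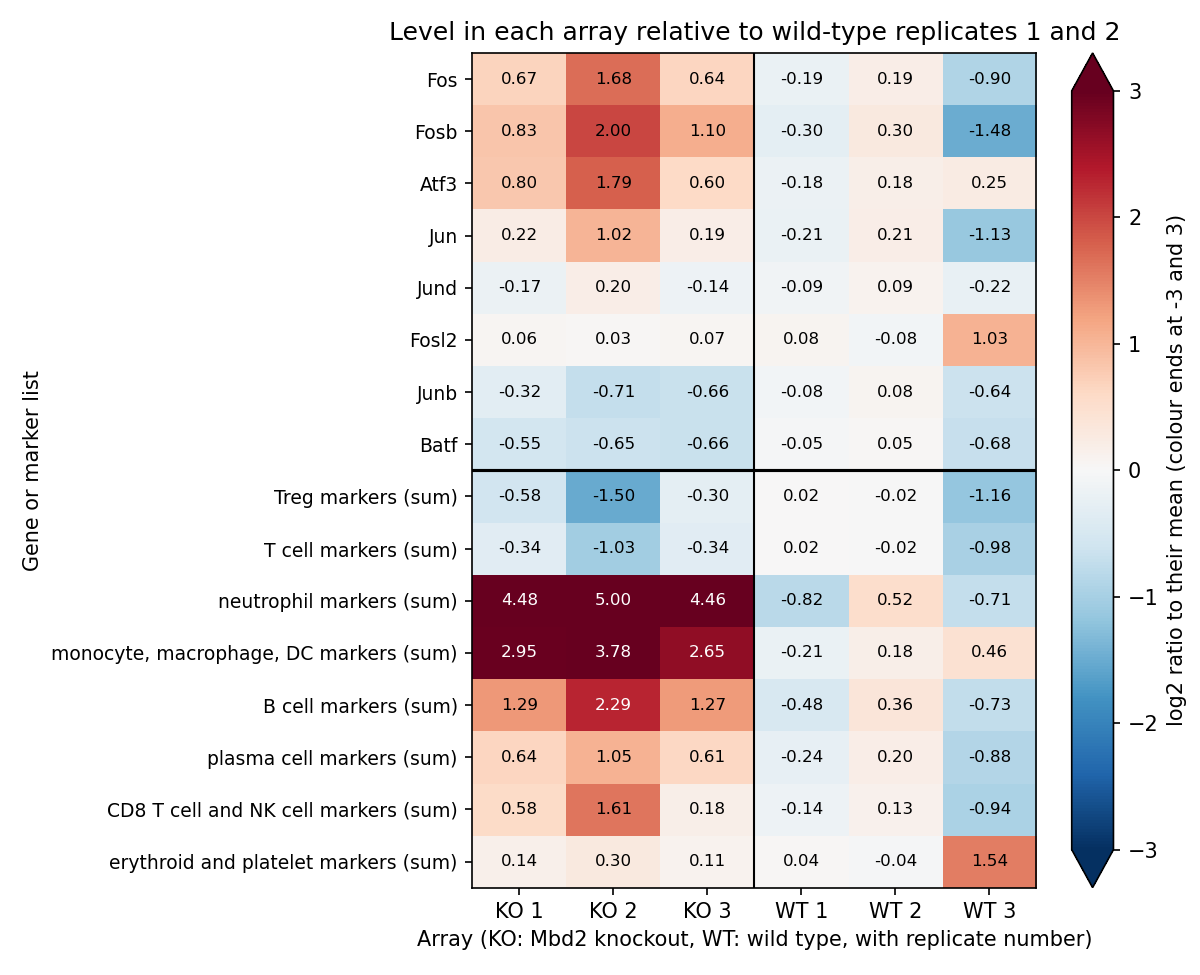
Log2 ratio of each tested AP-1 or BATF gene (upper rows) and of each summed marker list (lower rows) to the mean of wild-type replicates 1 and 2, in every array, with knockout arrays on the left. In the deposited values knockout replicate 2 shows 1.68 for Fos, 1.79 for Atf3 and -1.03 for the T cell marker sum. Wild-type replicate 3, whose quartiles lie closer together, shows -0.68 for Batf and -0.98 for the T cell marker sum.

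A centring of each array on the mean of the 9 T cell markers was added after the values were seen. That mean was 0.56 lower in knockout than in wild-type replicates 1 and 2, so the centring adds the same amount to the log2 difference of every gene and leaves their order as it was. After it the log2 difference of Batf was -0.06 (95% interval -0.70 to 0.57, limma adjusted p = 0.856) and that of Junb -0.0048 (95% interval -0.62 to 0.61), in the fit without wild-type replicate 3. The median over all genes then was 0.50, and Batf and Junb lay -0.56 and -0.50 from it, as before the centring. Fos, Fosb and Atf3 were at 1.56, 1.87 and 1.62, above that median by 1.06, 1.37 and 1.13, and were not called (limma adjusted p = 0.137, 0.0941 and 0.134). The part of the T cell markers in the lower values of Batf and Junb, and of the neutrophil, myeloid and B cell markers in the higher values of Fos, Fosb, Jun and Atf3, was not tested.

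**Figure D4:**
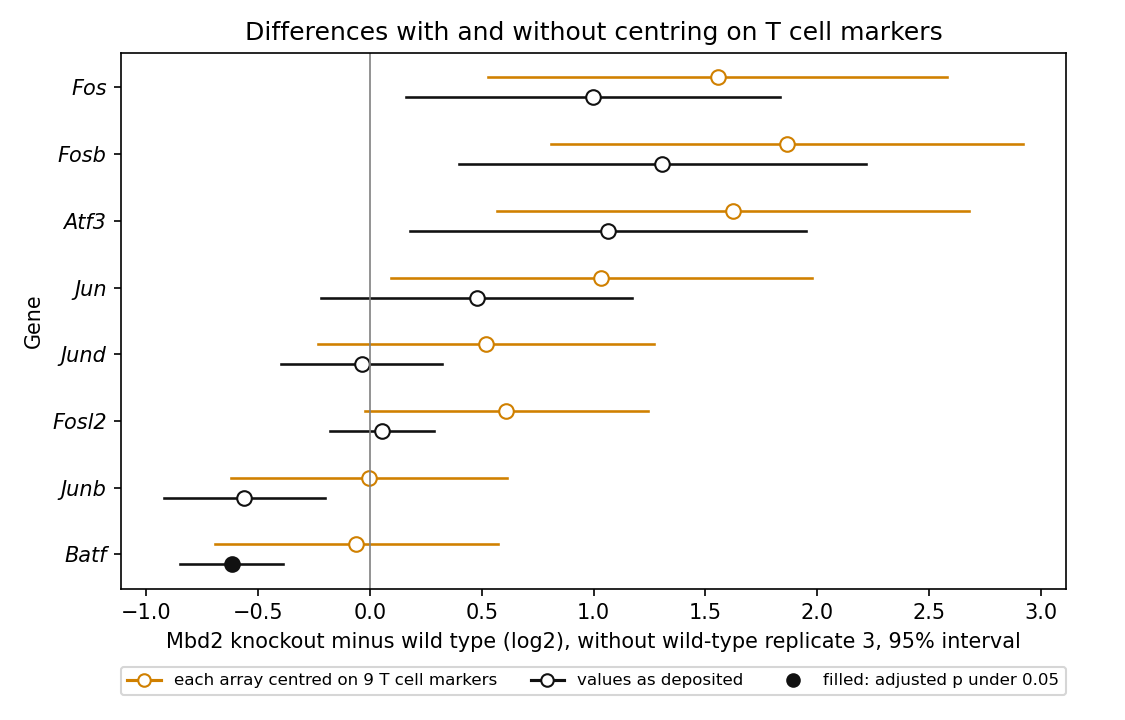
Log2 difference, knockout minus wild type, with its 95% interval, for 8 genes without wild-type replicate 3, in black for the deposited values and in orange after each array was centred on 9 T cell markers. Every gene moves right by the same amount, Batf to -0.06 (open) after centring, against -0.62 (filled, adjusted p under 0.05) as deposited.

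The inputs to AP-1, which phosphorylate its proteins or induce its genes, showed no call. Of 24 listed genes of the MAP kinases, their phosphatases and SRF cofactors, 17 were tested. Limma called 0 in both fits, with 0 at an unadjusted p under 0.05 with 6 arrays and 1 higher and 1 lower without wild-type replicate 3 (all genes 7.69% and 15%), and the median log2 difference was 0.33 and -0.10. The smallest p belonged to Dusp6, a phosphatase of ERK that ERK signalling itself induces. Dusp6 was at 8.58, 8.64 and 8.54 in knockout arrays, against 8.08, 8.18 and 6.32 in wild-type arrays (log2 difference without wild-type replicate 3 of 0.46, limma adjusted p = 0.0758). Mapk9, which encodes the kinase JNK2, was at -0.28, the SRF cofactor gene Elk3 at -0.43 and Mapk14, which encodes p38α, at 0.24.

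Other immediate early genes, which share the stimuli of Fos, did not all lie with it. Of 18 listed, 17 were tested and 0 were called by limma in either fit. At an unadjusted p under 0.05 there were 4 higher and 0 lower with 6 arrays (all genes 3.91% and 0.574%), and 3 higher and 5 lower without wild-type replicate 3 (all genes 7.69% and 15%), where the median was -0.14. Ier3 was at 6.84, 7.89 and 6.47 in knockout arrays, against 5.45, 5.56 and 6.10 in wild-type arrays, and Klf4, a factor of myeloid cells among others, was 0.67 higher on the log2 scale without wild-type replicate 3. Btg2, an antiproliferative gene, was at 9.22, 9.46 and 8.87 in knockout arrays, against 9.97, 10.13 and 8.64 in wild-type arrays, and Zfp36l1, which encodes an RNA decay factor, had a log2 difference of -0.51. Their limma adjusted p without wild-type replicate 3 were 0.115, 0.182, 0.082 and 0.0576.

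Of 32 other basic leucine zipper genes, 27 were tested, and limma called 0 with 6 arrays (3 higher and 0 lower at an unadjusted p under 0.05, all genes 3.91% and 0.574%) and 1 without wild-type replicate 3 (6 higher and 2 lower at an unadjusted p under 0.05, all genes 7.69% and 15%). Nfe2, which encodes a factor of erythroid, megakaryocytic and myeloid cells, was at 6.57, 7.02 and 6.29 in knockout arrays, against 4.52, 4.63 and 5.32 in wild-type arrays. It rose by a log2 difference of 2.06 in the 5-array fit (limma adjusted p = 0.0179). Cebpd, a myeloid and acute-phase factor, was at 2.07 (limma adjusted p = 0.0863), Batf3, which dendritic cells need for their development, at 0.89 (0.071) and Tef at -0.40 (0.193). Wild-type means of Nfe2 and Cebpd, 4.82 and 4.74, lay under the filter cutoff. Both genes passed the filter through their knockout values, and dim wild-type signal limits how well the size of their differences is known. Jdp2, the neighbour of Fos and Batf, was at 6.0, 7.08 and 6.17 in knockout arrays, against 5.60, 5.45 and 5.80 in wild-type arrays (log2 difference 0.89, limma adjusted p = 0.195).

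Among 9 partners that bind beside AP-1 in T cells, limma called 0 in both fits, with 1 higher and 0 lower at an unadjusted p under 0.05 with 6 arrays and 2 higher and 1 lower without wild-type replicate 3 (all genes 7.69% and 15%). Irf8, a factor of myeloid and B cells that can bind with Batf, was at 8.59, 9.31 and 8.46 in knockout arrays, against 7.59, 7.68 and 6.71 in wild-type arrays. Irf4, the partner of Batf in T cells, was at 8.43, 9.20 and 8.67 in knockout arrays, against 8.10, 8.26 and 5.28 in wild-type arrays. Neither overlapped between groups, and their log2 differences without wild-type replicate 3 were 1.15 and 0.59 (limma adjusted p = 0.0919 and 0.217). Nfatc3 was at -0.45 and Ets1 at -0.72.

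Of 20 genes known to be bound or controlled by AP-1 or Batf in T cells, 16 were tested, and limma called 0 with 6 arrays (2 higher and 2 lower at an unadjusted p under 0.05, all genes 3.91% and 0.574%). Without wild-type replicate 3 it called 1 higher and 4 lower, where 0.818% of all genes were called higher and 0.757% lower, and the median was -0.33. Ccr6, a chemokine receptor, was at 7.23, 6.97 and 7.22 in knockout arrays, against 8.44, 8.46 and 7.49 in wild-type arrays, and fell 2.48-fold (limma adjusted p = 0.0124). Icos, a costimulatory receptor, fell 1.94-fold, Rora, a nuclear receptor, 1.76-fold and the cytokine gene Tnf 1.81-fold (limma adjusted p = 0.028, 0.0383 and 0.0495). The call of Tnf was lost with no filter on low values (limma adjusted p = 0.0516). Mmp9, a gelatinase that neutrophils store in granules, rose 4.23-fold (limma adjusted p = 0.038). The list was drawn up with earlier results of these data known, so the count is a description.

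Likeness was measured as the root mean square difference of centred log2 values over the 6 arrays. The tested genes nearest to Fos were Myadm (0.12), Naaa (0.14) and Irf8 (0.14). Those nearest to Junb were Tmem229b (0.08), Tnfsf8 (0.09) and Chst2 (0.09), and those nearest to Batf were Mtmr2, Acsbg1 and Zc3h12a (0.06, 0.06 and 0.07). Acsbg1 was at 6.18, 6.08 and 6.16 in knockout arrays, against 6.86, 6.80 and 6.06 in wild-type arrays. In these deposited values wild-type replicate 3 was again at the knockout level.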

How the data were processed

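Single-colour arrays of 6 samples were analysed. The authors deposited 1 log2 value per probe set and array, made with RMA per the submitters' processing notes. The version, and which arrays were normalized together, is not stated there. RMA corrects background, normalizes by quantiles and summarises probes. The deposited values of wild-type replicate 3 had quartiles of 5.00 and 6.64, against 4.56 to 4.62 and 7.20 to 7.31 in the other arrays. The 6-array fit thus compares values of unlike distribution, and the reason for the difference was not tested. Array medians do not give a depth, and the number of arrays limits the precision.

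Of 22690 probe sets, 64 controls were left out. Symbols came from the platform annotation, updated by gene ID through RefSeq (GRCm38.p6). After a filter on the lowest 40% by mean (cutoff 5.18), the genotypes were compared on 13575 probe sets by limma (version 3.58.1, R 4.3.3) with no covariate, and p-values were adjusted over all of them by Benjamini-Hochberg with a threshold of 0.05. Mbd2, Foxp3 and Fosl1 values are given without the filter. Genes were represented by their brightest probe set (8190 genes).

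All members were named, and of each further list up to 4 genes by smallest p without wild-type replicate 3 and any called. The members and lists were chosen with earlier results of these data known. The fit was tested on simulated data. Same-numbered arrays deviated from their group means with correlations of 0.150, -0.092 and -0.141. These cannot decide whether the numbers pair the samples, as the outlying wild-type replicate 3 enters the wild-type mean. Figures were drawn with matplotlib 3.10.9.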

Additional observations from a re-analysis of the deposited data

How the results depend on the processing

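With 6 arrays the count of called members was 0 in the values as reported. It became 5 with array quality weights and 5 with wild-type replicate 3 and knockout replicate 2 left out together (each time Fos, Fosb, Atf3, Junb and Batf), and 0 to 1 when single arrays were left out, with Batf the 1 called without wild-type replicate 3. Without wild-type replicate 3 the count was 1, Batf. It became 5 with array quality weights, 0 after a further quantile normalization (Batf adjusted p = 0.0504), 3 with the replicate block (Fos, Fosb and Atf3, with Batf at adjusted p = 0.0897), 0 with T cell marker centring, which was chosen after seeing the data and adds 0.56 to every gene's difference, and 0 to 5 when a further array was left out, with 5 without knockout replicate 2. In the replicate block knockout replicate 3 has no partner, so that it rests on 2 wild-type and 2 knockout arrays. The numbers share no stated source, and the 6-array count stayed 0 with the block. The cause of these shifts was not tested.

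Directions turned for Fosl2 and Jund alone. With 6 arrays Fosl2 was at 0.11 and Jund at -0.22 with array quality weights. Jund was at -0.21 after a further quantile normalization. With both left out Fosl2 was at 0.0627 and Jund at -0.16. With single arrays left out, Fosl2 ran from -0.50 to 0.0526 and Jund from -0.0823 to 0.12. Without wild-type replicate 3, Jund was at 0.0148 with the replicate block and 0.52 with T cell marker centring, and leaving out a further array gave -0.16 to 0.0563 for Jund and -0.0242 to 0.13 for Fosl2. Batf kept its direction in all alternatives, from -0.70 to -0.21 with 6 arrays and from -0.66 to -0.06 without wild-type replicate 3. The settings with no filter, a stricter filter on low values, a trended robust variance, median centring, an adjusted p under 0.1 and the mean of probe sets left both counts as reported. Over all 13575 probe sets, 14 were called higher and 0 lower with 6 arrays, against 971 and 1352 with quality weights, 8 and 0 with no filter, 6 and 0 with T cell marker centring and 1136 and 1401 with both arrays left out. Without wild-type replicate 3 they were 91 and 99, against 1530 and 2253 with weights, 399 and 162 with the block, 301 and 478 at an adjusted p under 0.1, 129 and 7 with T cell marker centring, and from 13 and 5 to 1136 and 1401 with a further array left out. Fosl1 and, near the cutoff, Fosl2 are limited by dim signal. Atf3 was also near the cutoff in the wild-type arrays, at 5.18, 5.54 and 5.61. Fosl2 and Atf3 were not tested under the stricter filter.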
